A study of Rattus norvegicus with 12 samples.

Results

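The 10 genes that build, coat or break down the triglyceride droplets of the liver cell were followed through the livers of rats on a high-fat diet, with and without didymin. They were taken by name from the 16558 genes of the joined count tables, and all 10 were listed there: Gpam, Dgat1, Dgat2, Plin2, Plin5, Cideb, Cidec, Pnpla2, Cd36 and Hsd17b13. Of these, 9 had enough reads to be tested among 12355 genes.

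Liver RNA was sequenced from Sprague Dawley rats, an outbred stock, in 4 groups of 3 libraries. The normal group (N, labelled wt) received saline, and the labels give it no high-fat diet. The model group (M) was given a high-fat diet for 8 weeks to bring about non-alcoholic fatty liver. The remaining groups, lettered D and G in the count columns, had that diet and didymin, a citrus flavonoid glycoside, at a low or a high dose. No label says which letter is which dose, so the names arm D and arm G are used, and no age or sex is given in the sources used here. The model, arm D and arm G share the diet, and only the arms share the compound. The sample labels record the weeks of diet for the model group alone. The column of M2.1 has another form of name than the other model columns, for a reason that is not given.

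In the liver cell, triglyceride is built by adding fatty acyl groups to glycerol 3-phosphate. Gpam makes the first addition at the mitochondrial surface, and Dgat1 and Dgat2 make the last, which completes the molecule. The product is stored in droplets coated by perilipins (Plin2, Plin5) and enlarged by the CIDE proteins (Cideb, Cidec), and it is broken down by lipases that begin with Pnpla2. Cd36 brings fatty acids into the cell, and Hsd17b13 is a droplet protein of hepatocytes. In fatty liver the droplets grow in number and size, and Plin2 protein is widely used to mark them.

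Library totals ran from 12469914 to 15521648 counts. The 13 genes of the mitochondrial genome took between 3.85% and 61.0% of them, with the highest shares in G.3 (61.0%) and the model library M.6 (44.1%). Those libraries also had the least of 12 hepatocyte markers, at a summed 53385 CPM (CPM values are read counts relative to the TMM-scaled library size) in G.3 and 86671 CPM in M.6, against 167709 to 222314 CPM in the other 10. All 12 hepatocyte markers were detected in the liver libraries. Of 10 adipocyte markers, 7 were listed, with a summed 27.8 to 84.3 CPM, while Adipoq, Lep and Adrb3 were not listed. In whole tissue, fewer cells of a type and less RNA per cell cannot be told apart.

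None of the 9 tested genes rose or fell in any of the 5 comparisons (edgeR's quasi-likelihood test, Benjamini-Hochberg adjusted p below 0.05 over all 12355 genes). Over all genes the test called 0.089% when the 9 high-fat libraries were set against the normal group, and 0% in the model against normal, arm D against model, arm G against model and arm G against arm D. The 0 of 9 is therefore near the background and says little about these genes in particular. DESeq2 and limma-voom also called 0 of 9 in each comparison. Without adjustment, 806 genes had a p below 0.05 in the first comparison, 607 in the model against normal, 776 in arm D against model, 287 in arm G against model and 423 between the arms.

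**Figure D1:**
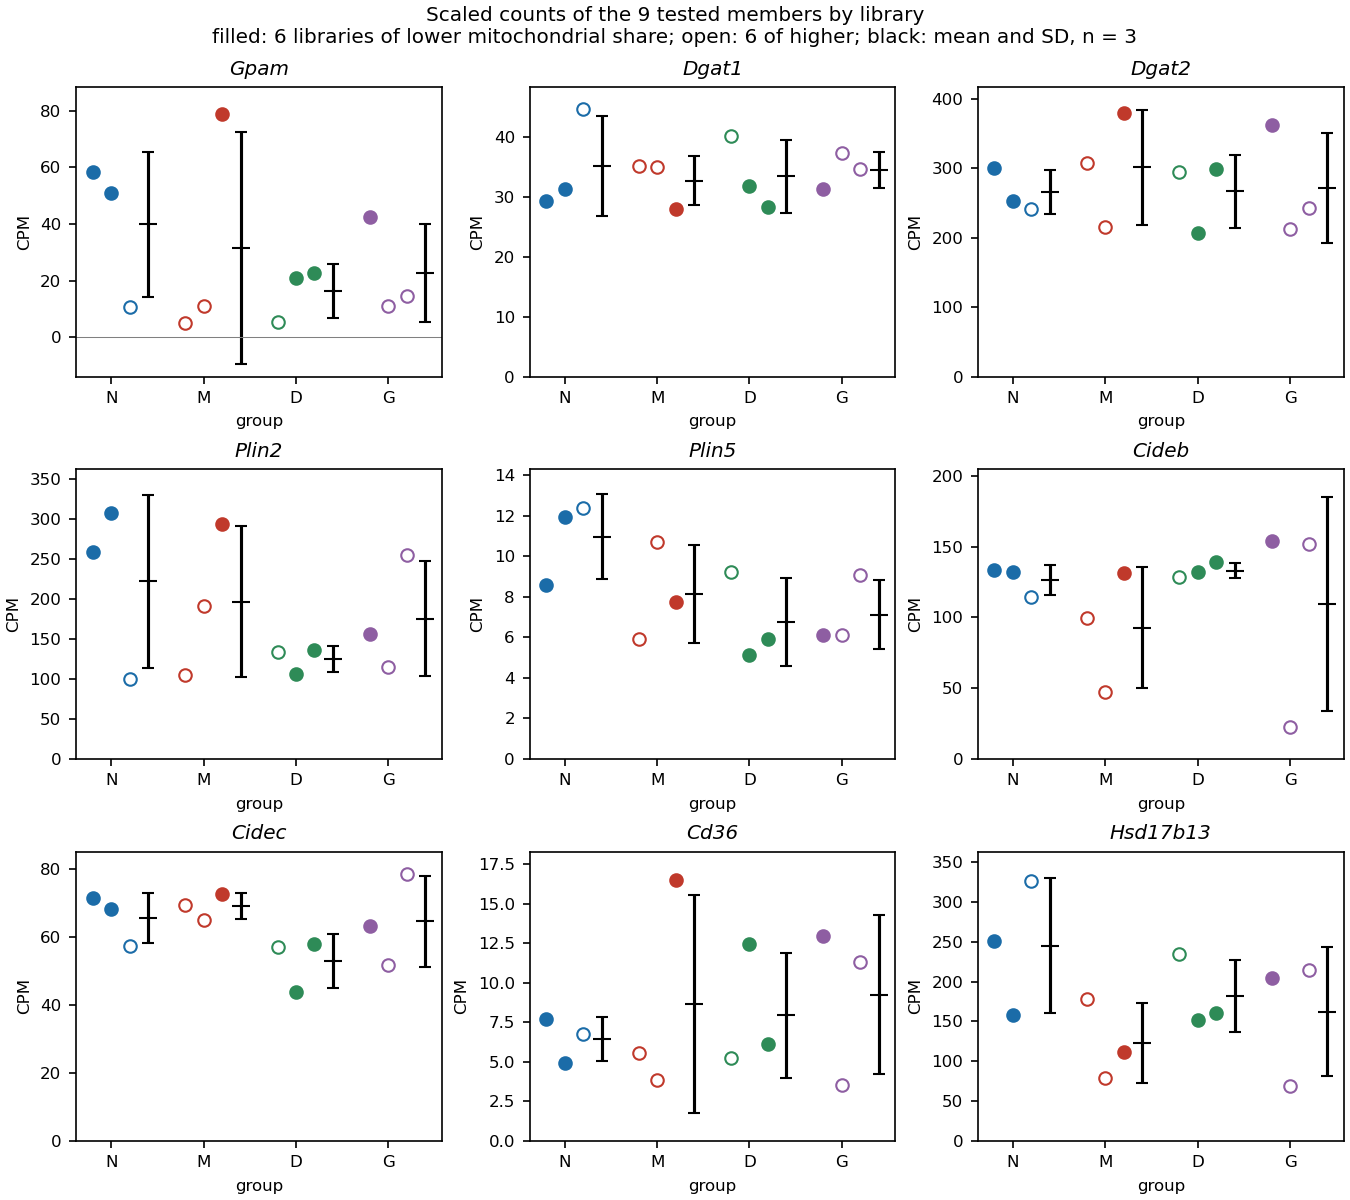
CPM (vertical axis) of the 9 tested genes in each library, by group, with the mean and SD of 3 libraries in black and filled points for the 6 libraries of lower mitochondrial share. Gpam spans 4.86 to 78.8 CPM, and in every group its filled points lie above its open points.

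Gpam showed the widest spread of the synthesis enzymes. Among the normal libraries it stood at 58.2 CPM in N.1, 50.8 CPM in N.2 and 10.5 CPM in N.3. Among the model libraries it was at 4.86 CPM in M.5, 11.1 CPM in M.6 and 78.8 CPM in M2.1, so the model group held both the lowest and the highest value of the study. Arm D had 5.46, 20.9 and 22.6 CPM in D.1, D.4 and D.7, and arm G had 42.6, 11.1 and 14.6 CPM in G.1, G.3 and G.4. The values of the other genes are given in the same order of libraries within each group. The groups overlapped throughout for Gpam. Group means were 39.9 ± 25.7 in the normal, 31.6 ± 41.0 in the model, 16.3 ± 9.46 in arm D and 22.8 ± 17.3 CPM in arm G (SD, n = 3). The log2 fold change was −0.81 ± 0.73 (SE, edgeR adjusted p = 0.795) in the high-fat groups against normal, with a 95% interval from −2.39 to 0.78. It was −0.43 without N.1 and −1.48 without M2.1 (edgeR adjusted p = 0.261). In the model against normal it was −0.33 ± 0.93 (edgeR adjusted p = 0.941), and without M2.1 it was −2.33 (edgeR unadjusted p = 0.0178, adjusted p = 0.195).

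Dgat1 varied little. Its normal libraries had 29.4, 31.4 and 44.7 CPM and its model libraries 35.2, 35.0 and 28.1 CPM. Arm D had 40.2, 31.8 and 28.4 CPM, and arm G had 31.4, 37.3 and 34.8 CPM. The groups overlapped throughout. Its log2 fold change was −0.07 ± 0.19 for the high-fat groups against normal (edgeR adjusted p = 0.919, interval −0.48 to 0.35), and −0.10 ± 0.23 for the model against normal (edgeR adjusted p = 0.925).

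Dgat2, which in liver works mainly on newly made fatty acids, had 301, 253 and 242 CPM in the normal libraries. The model libraries had 307, 216 and 380 CPM, arm D had 294, 206 and 299 CPM, and arm G had 362, 212 and 243 CPM. The highest value was again M2.1, and the groups overlapped. The estimate was a log2 fold change of 0.07 ± 0.25 for the high-fat groups against normal (edgeR adjusted p = 0.935, interval −0.46 to 0.61) and 0.18 ± 0.30 for the model against normal (edgeR adjusted p = 0.901).

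Cd36, the fatty acid carrier, was a low-count gene with 31 to 305 reads per library. It had 7.68, 4.93 and 6.79 CPM in the normal libraries and 5.59, 3.87 and 16.5 CPM in the model libraries. Arm D had 5.25, 12.4 and 6.11 CPM, and arm G had 12.97, 3.52 and 11.3 CPM. A set of 4 high-fat libraries (M2.1, D.4, G.1 and G.4) lay above all normal libraries, and M.6 and G.3 lay below all of them. Such counts were not made over all tested genes, here or for the members below. On the log2 scale the change was 0.42 ± 0.49 for the high-fat groups against normal (edgeR adjusted p = 0.811, interval −0.64 to 1.47) and 0.43 ± 0.58 for the model against normal (edgeR adjusted p = 0.887), which turned to −0.45 without M2.1.

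Among the coat proteins, Plin2, the perilipin of most liver droplets, had 258, 307 and 100.2 CPM in the normal libraries. The model libraries had 105, 191 and 294 CPM. Arm D kept to a narrow range at 133, 106 and 136 CPM, and arm G had 156, 114 and 254 CPM. All 9 high-fat libraries lay within the range of the normal group, which its lowest library, N.3, sets. Fitted over all libraries, the log2 fold change was −0.45 ± 0.36 for the high-fat groups against normal (edgeR adjusted p = 0.794, interval −1.24 to 0.34), and without N.3 it was −0.80 (edgeR adjusted p = 0.585). In the model against normal it was −0.18 ± 0.46 (edgeR adjusted p = 0.934).

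Plin5, the perilipin that ties droplets to mitochondria in tissues that burn fat, had 8.58, 11.96 and 12.4 CPM in the normal libraries. The model libraries had 5.91, 10.7 and 7.75 CPM, arm D had 9.22, 5.11 and 5.93 CPM, and arm G had 6.13, 6.13 and 9.08 CPM. Of the 9 high-fat libraries, 6 lay below all normal libraries and none lay above them. The log2 fold change was −0.59 ± 0.26 for the high-fat groups against normal, with an interval from −1.15 to −0.02 and an edgeR unadjusted p of 0.0434. Plin5 was the single member with an unadjusted p below 0.05 there, and its edgeR adjusted p was 0.756. For the model against normal it was −0.43 ± 0.33 (edgeR adjusted p = 0.866).

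Hsd17b13 had 250.4, 158 and 327 CPM in the normal libraries. The model libraries had 178, 79.2 and 112 CPM, arm D had 234, 152 and 161 CPM, and arm G had 205, 68.5 and 214 CPM. Of the 9 high-fat libraries, 4 lay below all normal libraries and none lay above. The model against normal gave a log2 fold change of −0.997 ± 0.45, with an interval from −1.97 to −0.02, an edgeR unadjusted p of 0.0453 and an adjusted p of 0.866. In the authors' deposited table the log2 fold change of normal over model was 0.996, with a p-value of 0.0199 and an adjusted p-value of 0.548. The high-fat groups against normal gave −0.67 ± 0.35 (edgeR adjusted p = 0.791, interval −1.43 to 0.09). The lowest values, in G.3 and M.6, were in the libraries with the least hepatocyte marker counts. Without both, the value for the model was −0.76 (edgeR unadjusted p = 0.0505, adjusted p = 0.938).

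Cideb, which in mice also helps to load lipid onto very-low-density lipoprotein, was steady in all but a pair of libraries. The normal libraries had 134, 132 and 115 CPM, and arm D had 128, 132 and 139 CPM. The model libraries had 99.9, 47.1 and 132 CPM, and arm G had 154, 22.3 and 152 CPM. The outlying values were those of M.6 and G.3. Set against 1000 CPM of the summed hepatocyte markers, Cideb was at 0.544 CPM in M.6 and 0.419 CPM in G.3, and at 0.516 to 0.819 CPM in the other 10, so M.6 then fell within the range of the others and G.3 stayed below it. On that scale M.6 and G.3 lay above all other libraries in Dgat1 (0.404 and 0.699), Dgat2 (2.49 and 3.97), Plin2 (2.20 and 2.14), Plin5 (0.124 and 0.115) and Cidec (0.750 and 0.969). The marker sum is the divisor and was lowest in M.6 and G.3, so any gene that fell less than the markers comes out high there. Hsd17b13 in G.3, at 1.28, then lay below N.3 and D.1 alone, at 1.47 and 1.34. The log2 fold change of Cideb was −0.19 ± 0.44 for the high-fat groups against normal (edgeR adjusted p = 0.898) and turned to 0.085 without M.6 and G.3. For the model against normal it was −0.45 ± 0.55 (edgeR adjusted p = 0.880). The annotated span of Cideb overlaps that of Nop9, which the tables also list, and whether counting used strand is not given, so some reads could belong to either gene.

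Cidec, whose protein fuses droplets and is known to be scarce in lean liver, had 71.4, 68.2 and 57.2 CPM in the normal libraries. The model libraries had 69.3, 65.04 and 72.7 CPM, arm D had 57.05, 43.9 and 57.9 CPM, and arm G had 63.4, 51.7 and 78.6 CPM. The model and the normal group overlapped, and the log2 fold change between them was 0.07 ± 0.22 (edgeR adjusted p = 0.946, interval −0.42 to 0.56). For the high-fat groups against normal it was −0.09 ± 0.18 (edgeR adjusted p = 0.888, interval −0.48 to 0.31).

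Pnpla2, the lipase that starts droplet breakdown, was listed with 1 read in all, in D.7. The other 11 libraries had 0 reads, which allows up to 3 in each. It was not tested. Liver is known to express this gene, and the annotation behind the counts is not given in the sources used here, so this value was read as neither a level nor an absence.

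**Figure D2:**
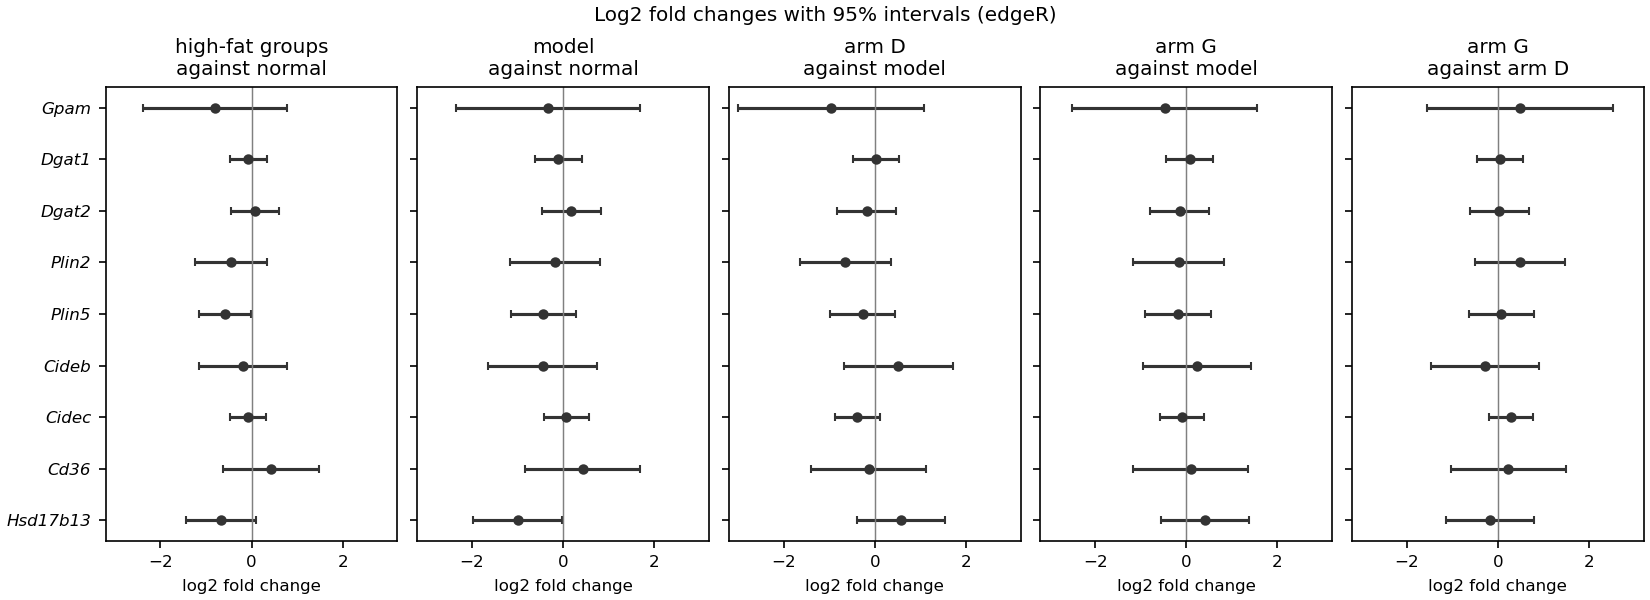
Log2 fold changes (horizontal axis) of the 9 tested genes with 95% intervals in the 5 comparisons, 1 panel each. The intervals cross 0 in all but Plin5 in the high-fat groups against normal (−1.15 to −0.02) and Hsd17b13 in the model against normal (−1.97 to −0.02), before adjustment over all genes.

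The arms were set against the model to ask what didymin did on top of the diet. In arm D the smallest p among the members was that of Cidec, with a log2 fold change of −0.38 ± 0.23 (edgeR unadjusted p = 0.115, adjusted p = 0.802). Its 3 arm D libraries all lay below the 3 model libraries. Among the members it was the single case without overlap in either arm against the model. There was none between the arms or in the model against normal. The share of all tested genes without such overlap was not counted, so this says little about Cidec in particular. Plin2 had −0.65 ± 0.46 (edgeR adjusted p = 0.829) and Hsd17b13 had 0.57 ± 0.45 (edgeR adjusted p = 0.841), and both overlapped. The other 6 members ran from −0.95 to 0.52. Markers of endothelial cells and macrophages were mostly higher in arm D than in the model, and also in arm G. The 9 tested markers of sinusoidal endothelium summed to 377 to 436 CPM in arm D and 238 to 301 CPM in the model, without overlap, and 8 of 9 were positive on the log2 scale (median 0.71). The 12 markers of Kupffer cells and macrophages summed to 1931 CPM in D.4, 1292 CPM in D.7 and 626 CPM in D.1, against 309 to 700.2 CPM in the model, so D.1 lay within the model's range, and 12 of 12 were positive, with a median of 1.44. Against the model, arm G had 9 of 9 endothelial markers positive (median 0.24) and 12 of 12 Kupffer and macrophage markers (median 0.59). Both sums overlapped between arm G and the model. In the model against normal 7 of 9 (median −0.21) and 12 of 12 (median −0.58) were negative. Of all tested genes, 53.3% were negative in arm D and 50% in arm G against the model. In the model against normal 47.4% were. How often other sums of genes lack overlap was not counted. At an edgeR unadjusted p below 0.05, arm D against the model had 11 of 12 Kupffer and macrophage markers, all positive. It had 4 of 9 endothelial markers, also all positive, beside 6.28% of all tested genes. Arm G against the model had none of either. None of these markers passed the test, and the part of these cells in the members' values was not tested.

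In arm G against the model the smallest p values belonged to Hsd17b13 (log2 fold change 0.40 ± 0.44), Plin5 (−0.19 ± 0.33) and Gpam (−0.47 ± 0.93). All 3 had an edgeR adjusted p of 0.9997, and Gpam turned to 1.53 without M2.1. The members ran from −0.47 to 0.40. Between the arms, Cidec was at 0.29 ± 0.23, Plin2 at 0.48 ± 0.46 and Gpam at 0.48 ± 0.94 in arm G over arm D, each with an edgeR adjusted p of 0.999. The comparisons of each arm with the model share the model libraries, so their values are not independent.

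The median log2 fold change of the 9 tested members was −0.19 in the high-fat groups against normal and −0.18 in the model against normal, beside 0.02 and 0.03 over all tested genes. In the first 7 of 9 were negative and in the second 6 of 9, where 47.9% and 47.4% of all tested genes were. The hepatocyte markers ran the same way, with 12 of 12 negative (median −0.41) and 11 of 12 (median −0.54), none of which passed. Their part in the members' values was not tested. The widths of the intervals show what these libraries could resolve. For Cidec and Dgat1 a change of more than 1.0 on the log2 scale lay outside the interval in either direction in all 5 comparisons, while for Gpam changes of 1.5 in either direction lay within it in the model against normal.

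Members differed most in how much they varied within a group. The SD of log2 CPM around the group means was 1.45 for Gpam, at percentile 98.9 of the 6568 tested genes with a mean of at least 10 CPM, whose median was 0.41. It was 0.89 for Cideb, 0.82 for Cd36, 0.65 for Plin2 and 0.63 for Hsd17b13. Plin5 was at 0.37 and Dgat2 at 0.34. Dgat1 was at 0.23 (percentile 14.0) and Cidec at 0.21 (percentile 9.21). Without M.6 and G.3, Cideb was at 0.14 (percentile 8.28), Cidec at 0.19 (percentile 20.7), Dgat1 at 0.26 (percentile 41.9) and Gpam at 1.60 (percentile 99.6).

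The spread of Gpam followed the mitochondrial share of the library. The 6 libraries of lowest share (N.2, N.1, M2.1, D.4, D.7 and G.1, at 3.85% to 6.07%) held its 6 highest values, 20.9 to 78.8 CPM, and the other 6 (7.88% to 61.0%) held 4.86 to 14.6 CPM. Dgat1 ran the other way, at 28.1 to 31.8 CPM in the low-share and 34.8 to 44.7 CPM in the high-share libraries. The share of all tested genes that split in this way was not counted, so these splits say little about either gene in particular. The lowest Gpam values were in M.5 and D.1, not in M.6 and G.3, which had the highest shares. Set against the summed hepatocyte markers, a divisor that was lowest in G.3 and M.6, the split of Gpam did not hold. On that scale G.3 (0.208 per 1000 marker CPM) and M.6 (0.128) lay above D.4 (0.124). Each group had both kinds of library, with 2 low-share libraries in the normal group and in arm D and 1 in the model and in arm G.

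**Figure D3:**
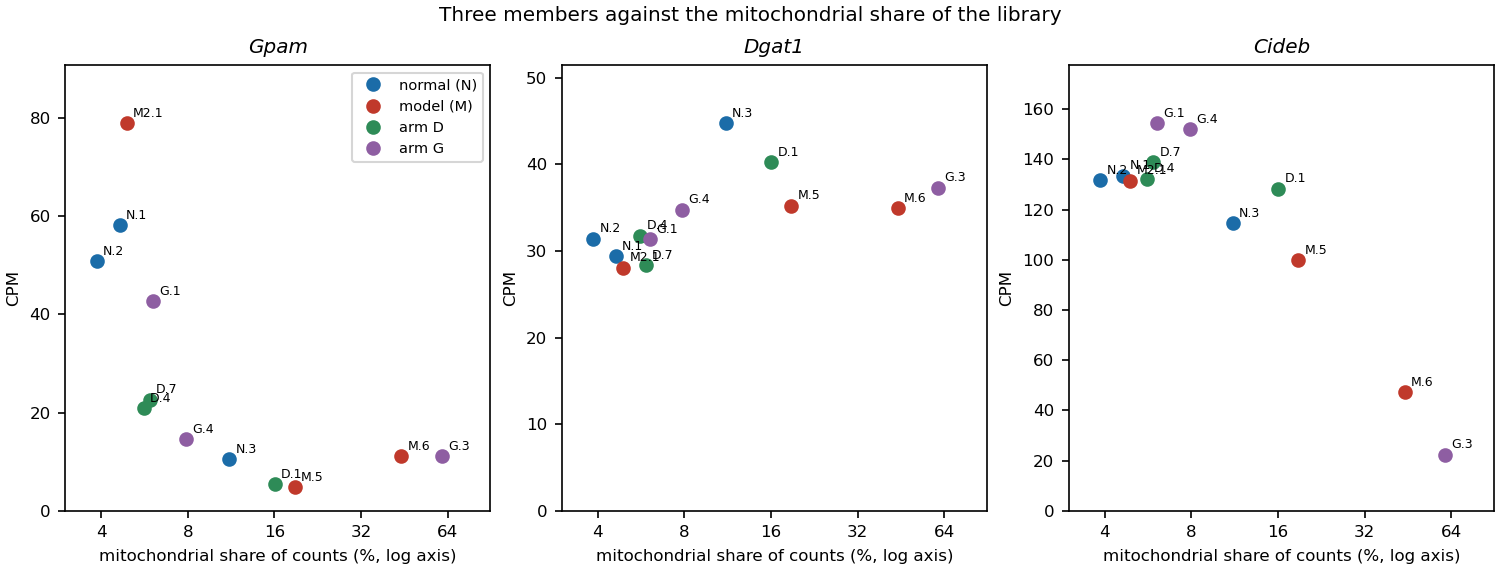
CPM of Gpam, Dgat1 and Cideb (vertical axes) against the mitochondrial share of each library (log axis), coloured by group. Gpam falls from 78.8 CPM in M2.1 to 4.86 CPM in M.5, and stands at 11.1 CPM in both M.6 and G.3, at the right. Dgat1 lies at 28.1 to 31.8 CPM in the 6 libraries at the left, and Cideb drops in M.6 and G.3.

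This pattern was seen in these libraries and then tested on them, beside the group means, by an edgeR fit chosen after seeing the data. Over all genes that fit called 34.1% (4217 of 12355), and among the members 3 of 9, so the count is at the background. Gpam changed by −0.82 ± 0.19 on the log2 scale per doubling of the share (edgeR adjusted p = 0.00572), Cideb by −0.55 ± 0.12 (0.00469) and Cd36 by −0.54 ± 0.11 (0.00347, both edgeR adjusted p). Without M.6 and G.3, where 31.2% of genes were called, Gpam was at −1.76 ± 0.18 (edgeR adjusted p = 0.000272), while Cideb (−0.14, adjusted p = 0.141) and Cd36 (−0.47, adjusted p = 0.0985) no longer passed. In those 10 libraries Dgat1 rose by 0.27 ± 0.07 (edgeR adjusted p = 0.0213) and Hsd17b13 by 0.41 ± 0.09 (edgeR adjusted p = 0.00596) per doubling. Over all 12 libraries neither passed. Dgat1 was then at 0.13 ± 0.06 (edgeR adjusted p = 0.110), and Hsd17b13 had the other sign, at −0.14 ± 0.15 (edgeR adjusted p = 0.486). Without M2.1 alone, Gpam was at −0.61 with an edgeR adjusted p of 0.0734. With the share as a covariate, the log2 fold change of Gpam in the high-fat groups against normal was −0.02.

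**Figure D4:**
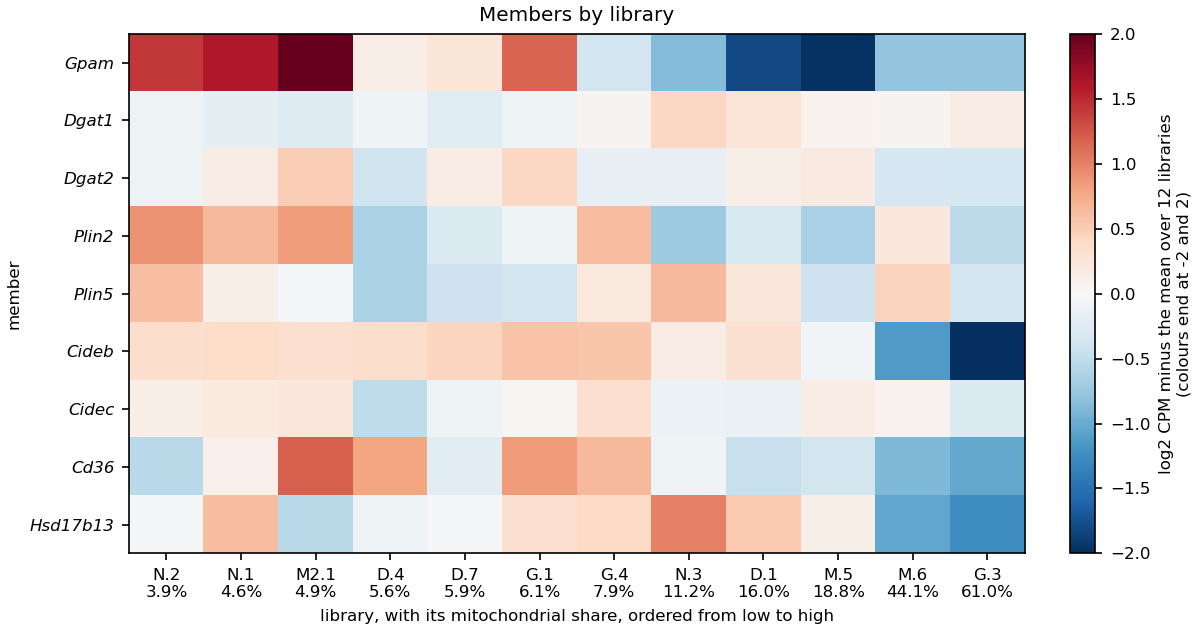
Log2 CPM of each tested gene minus its mean over 12 libraries (colour), with libraries ordered from left to right by mitochondrial share. Gpam passes from red to blue along the order, whereas Cidec stays pale and Cideb, Cd36 and Hsd17b13 are blue in M.6 (44.1%) and G.3 (61.0%).

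Some members kept step from library to library. Over the 12 libraries the Pearson r of log2 CPM was 0.70 between Gpam and Plin2 (0.72 without M.6 and G.3), 0.73 between Plin2 and Cidec (0.70 without), and −0.77 between Gpam and Dgat1 (−0.76 without). Cideb and Hsd17b13 had 0.76, which was −0.11 without M.6 and G.3. The pairs named had the most extreme r among the members, and r over all pairs of tested genes was not computed. These values describe 12 libraries that also differ in depth and mitochondrial share, and the part of either in them was not tested. The same measure over all tested genes with at least 10 CPM put Rdx (r = 0.98), Itch and Prrc2b (0.97 each) nearest to Gpam. The nearest to Plin2 were Pik3c2a (0.95), Mapk9 (0.89) and Arih1 (0.87). Fanci (0.94), the contig gene AABR07026294.1 (0.92) and Bmp2 (0.89) were nearest to Dgat1, and Ppat (0.88), RGD1309534 (0.86) and Gfm1 (0.85) to Dgat2. Plin5 was most like Hsdl2 (0.87), Larp1b (0.85) and Acot2 (0.84), and Cidec like Srp54a (0.84), Ddx3 (0.83) and Uso1 (0.82). Cideb was nearest to Ctsb (0.99), Josd1 (0.99) and Pgam1 (0.98), Cd36 to Hnrnpm (0.87), Afg3l1 (0.87) and Maged1 (0.86), and Hsd17b13 to Cks1b (0.95), Eif2d (0.95) and Cpb2 (0.94). Several of these values rested on M.6 and G.3. Without them the r with Cideb was 0.90 for Ctsb, 0.82 for Pgam1 and 0.69 for Josd1. In those 10 libraries none of the 3 nearest genes of Dgat1, Dgat2, Cideb, Cd36 and Hsd17b13 was the same, while Itch, Pik3c2a, Acot2 and Srp54a were still among the 3 nearest to Gpam, Plin2, Plin5 and Cidec.

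Promoter sequence from RefSeq (build GRCr8) was at hand for 8 of the 10 members, from 250 bases before to 50 after the annotated start. Those of Gpam and Plin2, which kept step over the libraries, and of Plin5 and Hsd17b13, which had the smallest p values against the normal group, are shown 5′ to 3′, with motif matches in capitals. Gpam is at chr1:264175862-264176161 (minus strand), Plin2 at chr5:106228969-106229268 (minus), Plin5 at chr9:1033235-1033534 (minus) and Hsd17b13 at chr14:6056539-6056838 (plus).
Gpam: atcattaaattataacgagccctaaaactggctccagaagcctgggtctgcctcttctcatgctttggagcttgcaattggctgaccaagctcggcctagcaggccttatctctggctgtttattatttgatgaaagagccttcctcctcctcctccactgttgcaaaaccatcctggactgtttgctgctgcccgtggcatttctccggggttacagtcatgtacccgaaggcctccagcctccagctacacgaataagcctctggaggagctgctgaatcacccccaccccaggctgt
Plin2: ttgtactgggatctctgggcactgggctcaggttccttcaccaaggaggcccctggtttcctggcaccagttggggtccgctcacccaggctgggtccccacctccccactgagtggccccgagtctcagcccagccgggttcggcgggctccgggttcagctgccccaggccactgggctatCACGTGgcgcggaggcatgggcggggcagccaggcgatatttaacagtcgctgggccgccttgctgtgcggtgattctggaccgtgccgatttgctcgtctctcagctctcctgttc
Plin5: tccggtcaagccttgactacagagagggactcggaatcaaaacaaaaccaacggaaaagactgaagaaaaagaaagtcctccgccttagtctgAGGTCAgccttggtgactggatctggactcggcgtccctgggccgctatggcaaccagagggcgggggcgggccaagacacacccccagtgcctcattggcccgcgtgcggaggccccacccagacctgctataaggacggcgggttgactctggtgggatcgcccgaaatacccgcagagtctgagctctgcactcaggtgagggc
Hsd17b13: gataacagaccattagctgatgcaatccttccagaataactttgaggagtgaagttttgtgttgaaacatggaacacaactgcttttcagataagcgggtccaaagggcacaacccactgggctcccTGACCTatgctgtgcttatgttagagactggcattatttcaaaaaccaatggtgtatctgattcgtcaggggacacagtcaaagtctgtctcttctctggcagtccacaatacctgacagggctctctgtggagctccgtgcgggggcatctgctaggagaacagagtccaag
The search covered 4 motifs on both strands. The E-box CACGTG, a core that Mlxipl (ChREBP), Srebf1 and Usf1 can bind, was found in the Plin2 window 67 bases before the start, and in 6.42% of 33469 rat promoters of the same length. The receptor half-site AGGTCA, part of the elements that Ppara binds, was found in Plin5 157 bases before the start and, on the opposite strand, in Hsd17b13 123 bases before it. It occurred in 16.2% of all promoters. The paired half-sites AGGTCANAGGTCA (0.0538% of promoters), which contain the half-site, and the sterol element TCACNCCAC (1.12%) were in no member's window. The Gpam window held none of the 4 motifs, nor did the window of the other annotated start of Plin2. A match here is a description of letters.

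**Figure D5:**
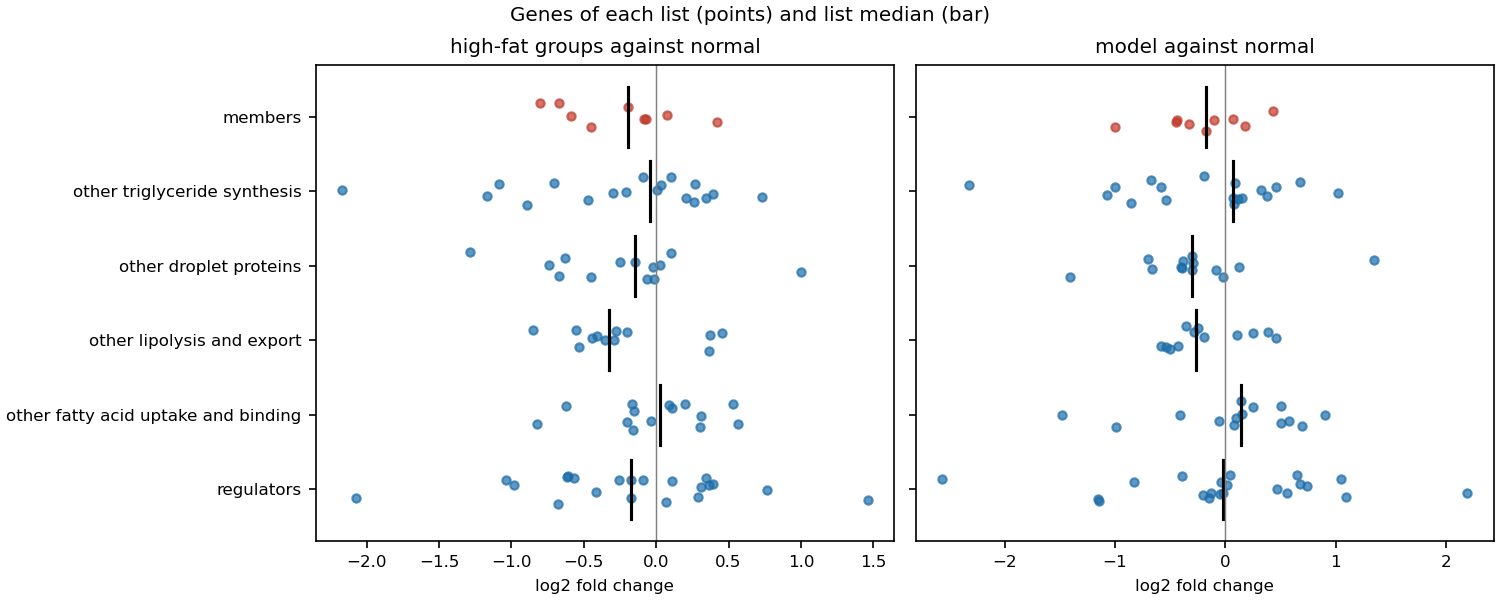
Log2 fold changes (horizontal axis) of the tested genes of each list in the high-fat groups against normal (left) and the model against normal (right), with the list median as a bar. The members (red) have medians of −0.19 and −0.18, and no gene of any list passed the test.

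The rest of the pathway was read from 5 further lists, and no gene of any of them passed in any of the 5 comparisons. Of 20 other genes of triglyceride synthesis 18 were tested, 9 higher and 9 lower in the high-fat groups against normal by sign alone, with a median log2 fold change of −0.04. The smallest p values belonged to Agpat3, an acyltransferase of the second step (−0.89 ± 0.21, edgeR adjusted p = 0.296), Acsl3, which activates fatty acids at droplets (−1.09 ± 0.30), and Gpat3, another glycerol phosphate acyltransferase (−2.17 ± 0.72). Agpat3 had 65.8 to 103 CPM in the normal and 29.5 to 55.4 CPM in the 9 high-fat libraries, which did not overlap. The share of all tested genes without such overlap was not counted. Gpat3 was a low-count gene, with 525 reads over the 12 libraries together. It had 4.62 to 9.01 CPM in the normal and 0.163 to 4.85 CPM in the high-fat libraries, which overlapped. In the model against normal Agpat3 (−0.86 ± 0.28), Acsl3 (−1.07 ± 0.39) and Agpat2 (−1.002 ± 0.36) led.

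Of 16 other droplet proteins 13 were tested, 3 positive and 10 negative, with a median of −0.15. G0s2, the protein that inhibits the Pnpla2 lipase, was positive. It had 117, 97.3 and 102 CPM in the normal libraries and 135 to 381 CPM in the 9 high-fat libraries, without overlap. Here too the share of all tested genes without overlap was not counted. Its log2 fold change was 0.9996 ± 0.32 for the high-fat groups (edgeR unadjusted p = 0.00787, adjusted p = 0.587) and 1.35 ± 0.37 for the model. Tmem135 (−0.67 ± 0.26) and Fam13a (−1.29 ± 0.50) followed, and Fam13a (−1.40 ± 0.67) and the perilipin Plin3 (−0.67 ± 0.35) in the model.

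For lipolysis and export, 12 of 14 genes were tested, 3 positive and 9 negative, with a median of −0.32. The lysosomal lipase Lipa had −0.41 ± 0.18, Mttp, which loads lipid onto lipoproteins, −0.55 ± 0.25, and Abhd5, the activator of Pnpla2, −0.44 ± 0.21. In the model against normal Lipa had −0.50 ± 0.22, Abhd5 −0.54 ± 0.27 and Tm6sf2 −0.59 ± 0.37. All 14 genes of fatty acid uptake and binding were tested, 7 positive and 7 negative, with a median of 0.03. Dbi, which binds acyl-CoA, had −0.83 ± 0.33, the fatty acid transporter and bile acid ligase Slc27a5 −0.62 ± 0.40 and Fabp2 0.57 ± 0.46. In the model Slc27a5 had −1.48 ± 0.52, Dbi −0.995 ± 0.43 and Slc27a1 −0.41 ± 0.22.

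All 21 regulators were tested, 9 positive and 12 negative, with a median of −0.17. Ppargc1a, a coactivator of mitochondrial genes, had a log2 fold change of −2.07 ± 0.47 (edgeR adjusted p = 0.256) and −2.57 ± 0.66 in the model. Its normal libraries were at 4.61, 3.61 and 0.820 CPM, and N.3 lay within the range of the high-fat libraries, 0.180 to 1.03 CPM. Srebf2, the sterol regulator, had −0.98 ± 0.23 (edgeR adjusted p = 0.296) and −1.15 ± 0.30 in the model. It had 43.6 to 77.5 CPM in the normal and 21.1 to 40.6 CPM in the high-fat libraries. For this lack of overlap, too, the share of all tested genes was not counted. Xbp1, a regulator of secretory capacity, had −1.04 ± 0.29, and Creb3l3, a fasting-induced factor, −0.83 ± 0.25 in the model. In the model against normal, 4 regulators in each direction had an edgeR unadjusted p below 0.05. Over both directions 4.91% of all tested genes did, and this list was chosen with earlier results of these data known. The positive ones were Srebf1 (2.20 ± 0.74), Pparg (1.09 ± 0.44), Mlxipl (1.05 ± 0.43) and Nr1h4 (0.56 ± 0.25), each with an edgeR adjusted p of 0.866. Srebf1 was at 174, 39.9 and 572 CPM in M.5, M.6 and M2.1, and at 34.1 to 102 CPM in the normal libraries. In the same order of model libraries, Mlxipl was at 67.9, 109 and 52.8 CPM and Nr1h4 at 90.2, 115 and 87.7 CPM. Both were highest in M.6, the model library with the largest mitochondrial share.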

How the data were processed

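The values are raw read counts per gene, as the authors deposited them in 3 tables of 6 libraries per the file headers. Each table sets the normal group, arm D or arm G against the same model libraries. The authors' deposited tables also give a log2 fold change and p-values per gene, used only where named. DESeq2 and the mouse build mm9 are named in the submitters' processing notes, while 14408 of 16558 gene names equal a current rat symbol. Not given in the sources used here are the aligner, counter, annotation and use of strand. The 36 per-sample columns of other values were not used.

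Columns were matched to groups by letter, not to single samples. Since the labels name no animal for a library, the p-values reflect library-to-library spread, which may be technical. No pair of libraries in a group agreed within sampling noise (chi-square per degree of freedom 22.4 to 893). Counts were tested in edgeR 4.0.16 (R 4.3.3) with filterByExpr, TMM scaling and 1 quasi-likelihood fit of 12 libraries, with 8 residual degrees of freedom and a common biological coefficient of variation of 0.409. A high-fat contrast averages the model and both arms. Log2 CPM used a prior count of 2. The test was checked on simulated counts with a single dispersion for all genes, lower than that of these data, and with large changes only. That check does not show whether smaller changes could be found in these libraries. Members, lists and tests were chosen with earlier results of these data known. All members were named, and, in each other list, the 3 genes of smallest p in each contrast with the normal group. The 4 regulators that were positive in the model against normal at an unadjusted p below 0.05 were named as well. Marker lists are of adipocytes, hepatocytes, Kupffer cells and macrophages, sinusoidal endothelium, stellate cells and skeletal muscle. The last 3 sums ran from 238 to 436 CPM, 203 to 562 CPM and 0.128 to 7.71 CPM.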

Additional observations from a re-analysis of the deposited data

How the results depend on the processing

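No member was called under any alternative for the 5 comparisons: RLE size factors, total counts, mitochondrial genes removed or their share as covariate, no filter, DESeq2, limma-voom with and without quality weights, only the groups compared, each library left out, or without M.6 and G.3. Over all genes these alternatives called 0 to 875 in the high-fat contrast, the most with voom quality weights, where Plin5 came nearest at −0.68 (adjusted p = 0.0501), and 87 with DESeq2. They called 0 to 41 in the model against normal, 0 to 14 in arm D and 0 to 5 in arm G against the model, and 0 to 5 between the arms. Of 585 alternative fold changes, 27 changed sign, and the cause was not tested.

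With quality weights, Dgat1 was at 0.032 (high-fat groups against normal) and 0.10 (model against normal), Plin5 at 0.027 and Gpam at 1.395 (arm G against model), where plain limma-voom put Gpam at 0.18. With the share as covariate, Cideb was at 0.23 and Cidec at 0.0035 in the high-fat contrast. In the model against normal Gpam was at 0.44, Plin2 at 0.24 and Cideb at 0.23. Without M.6 and G.3, Cideb was at 0.085 (high-fat), Gpam at 0.076 (model against normal), Plin5 at 0.16 (arm G against model) and Hsd17b13 at 0.41 per doubling of the share.

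Leaving out each library in turn gave log2 ranges that cross 0. For high-fat groups against normal they were −0.19 to 0.14 for Dgat1, −0.016 to 0.17 for Dgat2. For model against normal they were −2.33 to 0.18 for Gpam, −0.22 to 0.10 for Dgat1, −0.027 to 0.37 for Dgat2, −0.60 to 0.13 for Plin2, −0.020 to 0.13 for Cidec, −0.45 to 0.78 for Cd36. For arm G against model they were −0.42 to 0.055 for Plin5, −1.30 to 1.53 for Gpam. For arm G against arm D they were −0.35 to 0.79 for Gpam. The range per doubling of the share was −0.24 to 0.14 for Hsd17b13. The members called for the share were 2 to 3. No paired analysis was possible because the count columns carry no replicate numbers of the labels. An ordering of members by level per length was planned and was not run, since no per-length values were used. Counts limit Plin5 and Cd36 most, at 54 to 199 and 31 to 305 reads per library.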
